A study of Mus musculus with 21 samples.

Results

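The ATF4 and amino acid starvation genes are mostly genes that cells can switch on when an amino acid runs short, though other stresses can act through ATF4 too. The list used here names 38 genes, chosen by symbol, among them Ern1 and Herpud1, which are genes of endoplasmic reticulum stress. Each gene was read from its probe set with the highest mean over all arrays. Of the 38 genes, 36 had a probe set of their own among 19937 such genes, and 30 passed a filter on low values that kept 7300 genes. Pycr1 was not read on any probe set, Aars was read only on a probe set shared with another gene, and Stc2, Fgf21, Phgdh, Cth, Cbs and Slc7a3 were below the filter. The filter kept genes whose largest group mean reached a log2 signal of 7.33. Stc2, at 7.31 in its highest group, lay just outside it, and Ppp1r15a, at 7.84, Ddit3, at 7.92, and Atf5, at 8.03, lay just inside. For 8 of the 30 genes, namely Aldh1l2, Atf5, Ddit3, Gpt2, Ppp1r15a, Psph, Sesn2 and Trib3, only the brain P2 group or the first passage of a second brain experiment reached that limit, so their place among the tested genes depended on those arrays.

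RNA was measured in N202 cells, mouse mammary tumour cells of clone N202.1A, on 21 Affymetrix Mouse Gene 1.0 ST arrays that fell into 16 groups. All groups carry a rat HER-2/neu transgene under the MMTV promoter, which is active in mammary epithelium, and a histone H2B fused to green fluorescent protein. Spheroids of the cells were grafted onto brain, bone marrow, lung or breast tissue of donor mice inside a dorsal skinfold chamber of nude mice, which lack T cells, for 21 days per passage (P). After each passage the tumours were removed, selected with G418, sorted by their fluorescence and grown in culture before RNA was taken. The adapted groups were brain P1 to P4 with 2 arrays each, the second brain experiment P1 and P2 with 1 array each, bone marrow P1 to P4 and lung P1 to P4 with 1 array each, and breast P1 with 1 array. The untreated group was the parental line, P0, with 2 arrays. Replicate 2 of each brain passage carries the label of a technical replicate, but by the methods the replication began with the cultured cells, so p-values measure the spread between cultures of a single adapted line. The age of the host mice is not given in the labels.

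ATF4 is a transcription factor whose protein is made when the translation initiation factor eIF2 is phosphorylated, a step that kinases carry out when amino acids, protein folding, heme or double-stranded RNA call for it. Because the control lies in translation, the mRNA of Atf4 itself need not follow the activity of its protein. ATF4 binds with C/EBP partners at a DNA element found near genes for amino acid synthesis, amino acid uptake, tRNA charging and stress signalling. The same kinase step can be triggered by the endoplasmic reticulum (ER), and there it runs beside a separate branch that raises ER chaperones.

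The ATF4 element was looked for as the letters TGATGNAA, where N is any base, on both strands of the RefSeq promoter windows, which reach from 250 bases before to 50 bases after the start of a gene. In mouse assembly GRCm38.p6, 34 of the 38 genes had such a window, and 12 of them, 35.3%, held the letters, against 4.51% of 27025 genes. The list was chosen around ATF4, so its higher share of the letters is no separate evidence. Of the 18 genes with a window that were called higher at brain P2, 9 held the letters. Of the 10 tested genes with a window that were not called there, 0 did. Fgf21, Pycr1 and Aars also held the letters but were not tested. Fgf21 stood at 0.31 at brain P2 in the fit with no filter (limma, adjusted p = 0.8964). Whether the letters bear on the calls was not tested. The ER stress element, a longer motif bound by ATF6, was found in 0 of the 34 genes and in 0.137% of all genes. These are matches of letters only, and no binding was measured. The stretches upstream of the start of 7 called genes are shown because they let the shared letters be compared. They run 5′ to 3′ on the strand of the gene, and capitals mark the match, which for all but Asns is written as the complement read backwards.
Asns (chr6:7693210-7693252, minus strand, match at -23 to -16 from the start): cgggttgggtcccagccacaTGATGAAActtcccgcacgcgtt
Atf3 (chr1:191183416-191183463, minus strand, match at -110 to -103): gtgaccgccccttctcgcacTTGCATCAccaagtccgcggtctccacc
Nupr1 (chr7:126625553-126625600, minus strand, match at -110 to -103): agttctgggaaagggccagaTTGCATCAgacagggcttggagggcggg
Chac1 (chr2:119351029-119351076, plus strand, match at -193 to -186): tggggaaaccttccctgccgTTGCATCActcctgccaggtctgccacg
Vldlr (chr19:27216800-27216847, plus strand, match at -200 to -193 from one of its starts): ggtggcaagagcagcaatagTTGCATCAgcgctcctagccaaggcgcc
Herpud1 (chr8:94386297-94386344, plus strand, match at -112 to -105): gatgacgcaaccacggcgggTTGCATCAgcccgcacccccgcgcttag
Gars (chr6:55037951-55037998, plus strand, match at -30 to -23): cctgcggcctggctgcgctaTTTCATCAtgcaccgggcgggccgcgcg
With A, C, G or T at the open position, 5 of these 7 carried the form TGATGCAA and the other 2, Asns and Gars, the form TGATGAAA. In Trib3 and Iars the letters lay after the start and are not shown, and Atf4, Ddit3, Atf5, Gpt2 and Mthfd2 had no match in the window.

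All 21 arrays had a median log2 signal near 5, between 4.98 and 5.15. The 5th percentile of the signal, the floor of an array, was higher on replicate 2 of brain P1 to P4 and on the lung P1 array, at 2.49 to 3.04, than on the other arrays, at 2.01 to 2.40. Of 8 markers of epithelial tumour cells, 7 were kept and Krt19 was below the filter. The summed linear signal of the 8 was 19693 to 23095 at brain P2 and 21644 at second brain P1, against 19996 to 23060 at P0. Among these markers Erbb2, a receptor tyrosine kinase, was lower than at P0, with a log2 fold change of -0.76 (adjusted p = 0.0476) at brain P2 and of -1.69 (adjusted p = 0.0207) at second brain P1, and also of -1.19 (adjusted p = 0.0153) at brain P1, where 0 genes of the list were called. Cldn3, a tight junction protein, was higher at brain P2 by 0.72 (adjusted p = 0.0258). Erbb2 was also called lower than at P0 at brain P3, where 0 genes of the list were called. The part of these changes in the results was not tested. Markers of neurons, fibroblasts, endothelial cells and blood cells had 0 genes above the filter limit on any array, and those of glia had 1, Mbp. Of 6 macrophage markers, 2 were kept, Cd14 and Cd68, and the summed signal of the list was 2375 to 2531 at brain P2 and 1500 at second brain P1, against 1384 to 1735 at P0. Cd68, a lysosomal protein, was higher at brain P2 than at P0 by a log2 fold change of 2.25 (adjusted p = 0.006), and at second brain P1 by 0.81 (adjusted p = 0.4025). Cd68 was also called higher than P0 at brain P1, where 0 genes of the list were called. The summed signal rests mostly on Cd14, whose mean log2 signal over the 21 arrays was 10.41, against 6.90 for Cd68. The part of macrophages in the results was not tested, at brain P2 or at second brain P1.

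The list was at its highest at a single brain passage of each experiment. The median of the 30 genes lay 1.28 and 0.84 above the P0 mean on the 2 brain P2 arrays and 1.56 above it on the second brain P1 array, in log2 units, where 1 is a 2-fold change. On the other 16 adapted arrays that median lay between -0.30, on brain P3 replicate 2, and 0.36, on brain P1 replicate 1. The same median over all 7300 genes stayed between -0.24 and 0.03 on every array. On the brain P2 arrays 24 and 12 of the 30 genes were more than 2-fold above P0, on the second brain P1 array 27, on the brain P1 arrays 1 and 1, and on the remaining arrays 0.

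**Figure D1:**
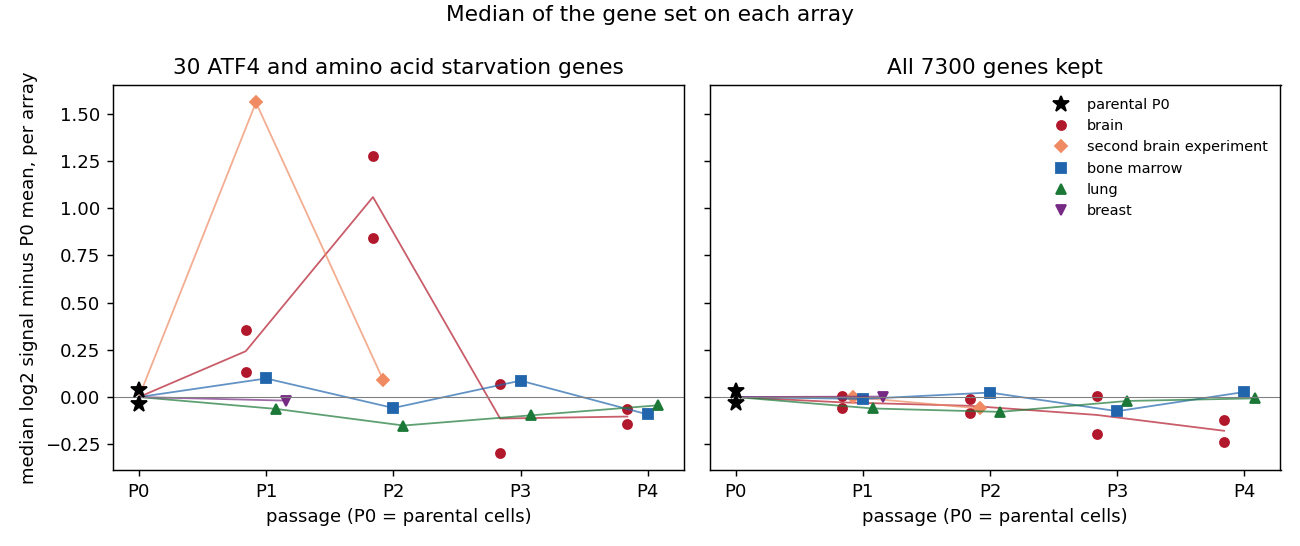
Median log2 signal of the 30 kept ATF4 and amino acid starvation genes (left) and of all 7300 kept genes (right) on each array, minus the P0 mean, against passage; each point is an array, lines join group means and stars are the P0 arrays. The brain P2 arrays, at 1.28 and 0.84, and the second brain P1 array, at 1.56, stand above the other arrays on the left, while the median of all genes stays near 0 on the right.

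Tests were run with limma on all kept probe sets, and a call required a Benjamini-Hochberg adjusted p under 0.05. At brain P2, 19 of the 30 genes were higher than at P0 and 0 were lower, where 4.9% of all 7300 genes were called higher and 8.37% lower. The median log2 fold change of the genes was 1.07, against -0.05 over all genes, 16 rose by more than 2-fold in the fit and 29 had a positive value. Both brain P2 arrays lay above both P0 arrays for 27 of the 30 genes, as they did for 25.6% of all genes. At second brain P1, 16 of the 30 genes were called higher and 0 lower, beside 0.945% of all genes called higher and 0.603% lower, with a median of 1.56 against 0.00 over all genes. These 2 comparisons share the P0 arrays: 13 genes were called in both, Atf5, Ddit3, Ern1, Herpud1, Slc3a2 and Vldlr only at brain P2 and Aldh18a1, Psph and Shmt2 only at second brain P1. Whether the calls were past the threshold in one and not in the other does not show that the effects differed. The 30 genes include the 8 that only brain P2 or second brain P1 brought past the filter. The calls of those 8 are therefore not independent of the filter.

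The calls depended on single arrays more than the direction did. Without brain P2 replicate 1 the count at brain P2 was 7 genes, without brain P2 replicate 2 it was 14, without parental P0 replicate 1 it was 8 and without parental P0 replicate 2 it was 11, and the median of the genes was 0.84, 1.28, 0.95 and 1.18 in these fits. Aldh1l2, Asns, Chac1, Gpt2, Mthfd2, Nupr1 and Trib3, 7 genes in all, were called in each of them. At second brain P1 the count was 6 without parental P0 replicate 1 and 9 without parental P0 replicate 2, and Aldh1l2, Atf3, Chac1, Gpt2, Mthfd2 and Nupr1 were called in both. With no filter 6 genes were called higher at brain P2, beside 0.361% of all 19937 genes, and 0 at second brain P1, beside 0%, with medians of 0.91 and 1.48. Leaving out all 5 high-floor arrays, which leaves 1 residual degree of freedom, gave 0 and 0, beside 0.11% and 0% of all genes called higher, with medians of 1.28 and 1.56. With the filter set on the other groups only, a choice made after the data had been seen, 14 of 22 genes were called at brain P2 and 12 of 22 at second brain P1, with medians of 0.91 and 1.48. Aldh1l2, Gpt2 and Trib3, named above, are among the 8 genes that this filter leaves out. The share of all genes called under this filter, or with single arrays left out, is not given here. Those counts therefore describe the list alone. Ddit3, Herpud1, Ppp1r15a, Trib3, Aldh1l2, Chac1 and Stc2 also stand in lists that the study drew from these same arrays, so their rise is not independent of the choice of those lists.

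**Figure D2:**
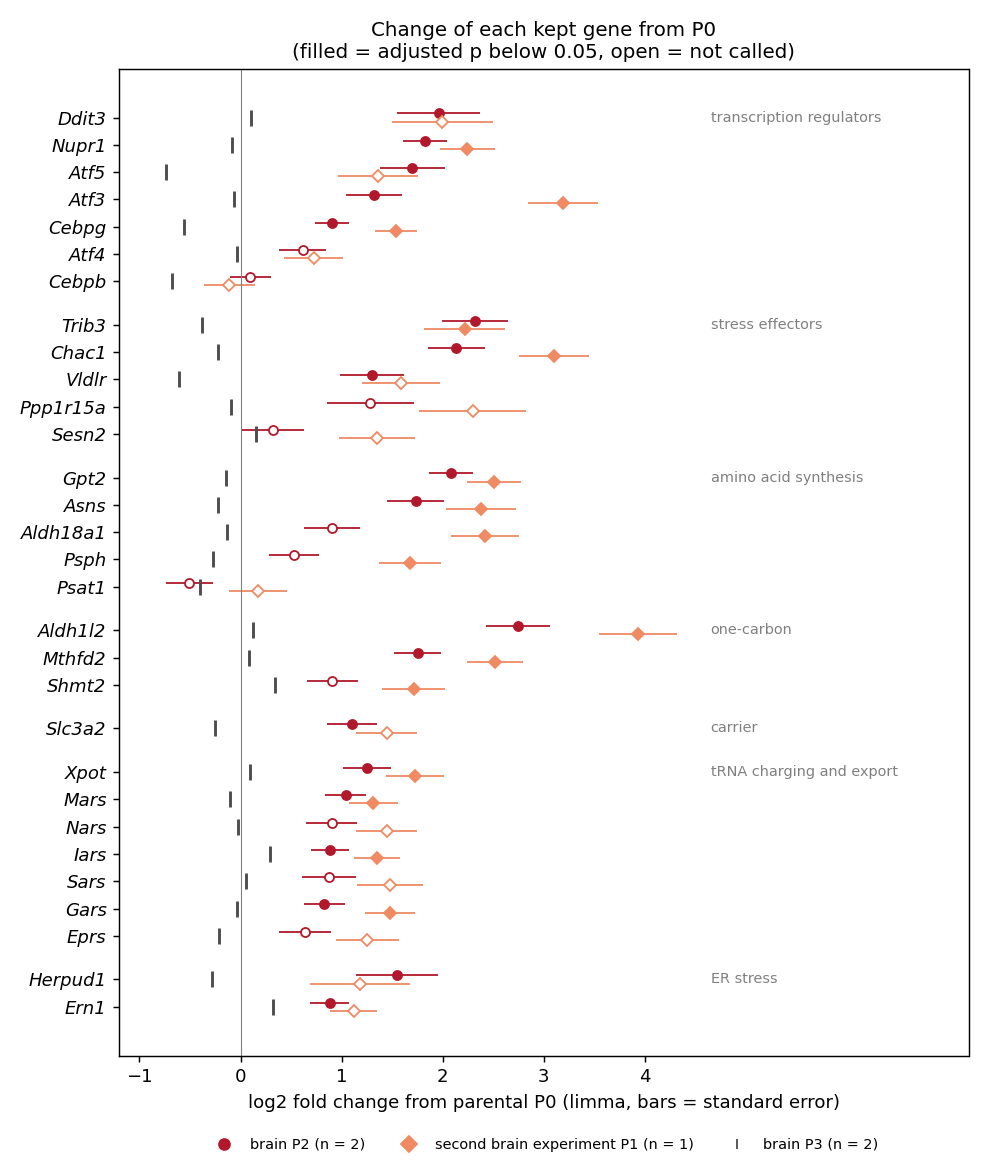
Log2 fold change from P0 of each of the 30 kept genes at brain P2 (circles, n = 2), at second brain P1 (diamonds, n = 1) and at brain P3 (ticks, n = 2), grouped by role; bars are standard errors from limma and filled symbols have an adjusted p below 0.05. Most circles and diamonds lie between 0.5 and 4 with Cebpb and Psat1 near or below 0, and the ticks lie between -0.74 and 0.34.

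Among the transcription regulators, Atf4 itself did not pass the test. Its log2 signal was 8.34 and 8.10 at brain P2 and 8.33 at second brain P1, against 7.46 and 7.75 at P0, and between 7.14 and 7.80 on the 16 other adapted arrays. The 3 arrays lay above all others, but neither the difference of 0.61 (standard error 0.24, adjusted p = 0.139) at brain P2 nor that of 0.72 (standard error 0.29, adjusted p = 0.2722) at second brain P1 passed the test. On bone marrow Atf4 was 7.66, 7.59, 7.76 and 7.64 at P1 to P4, on lung 7.30, 7.42, 7.57 and 7.50, and on breast 7.53, all within the span of the P0 and late brain arrays. Atf3, a stress factor whose gene is an ATF4 target, was 8.74 and 8.02 at brain P2 and 10.25 at second brain P1, against 7.03 and 7.09 at P0. It rose by 1.32 (standard error 0.28, adjusted p = 0.0196) at brain P2 and by 3.19 (standard error 0.34, adjusted p = 0.0081) at second brain P1, and was at most 7.46 on the 16 other adapted arrays. Atf5, whose mRNA is translated by the same eIF2-dependent mechanism, was 8.03 on both brain P2 arrays and 7.69 at second brain P1, against 6.45 and 6.21 at P0, a rise of 1.70 (adjusted p = 0.0131) at brain P2.

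Ddit3 encodes CHOP, a factor linked to stress-induced cell death. Its signal was 8.54 and 7.22 at brain P2 and 7.92 at second brain P1, against 5.88 and 5.97 at P0, and brain P2 replicate 2 was close to the highest of the other adapted arrays, brain P1 replicate 2 at 7.12. Ddit3 rose by 1.96 (standard error 0.41, adjusted p = 0.0182) at brain P2 and stood at 1.99 (standard error 0.50, adjusted p = 0.0959) at second brain P1. Nupr1, a small chromatin-associated stress protein, was 10.42 and 10.21 at brain P2 and 10.74 at second brain P1, against 8.39 and 8.59 at P0, and rose by 1.83 (adjusted p = 0.0024) and 2.24 (adjusted p = 0.0107). Its arrays at brain P2 and second brain P1 were well clear of the highest other array, which was lung P2 at 8.88. Cebpg, a binding partner of ATF4, was 8.63 and 8.39 at brain P2 and 9.14 at second brain P1, against 7.58 and 7.64 at P0, with rises of 0.91 (adjusted p = 0.013) and 1.54 (adjusted p = 0.0161). Cebpb, a related factor, overlapped P0, with 8.26 and 8.10 at brain P2 and 7.97 at second brain P1, against 7.95 and 8.22 at P0, and was not called in either.

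The stress effectors included some of the largest changes. Trib3, a pseudokinase that dampens ATF4 and CHOP activity, was 8.94 and 8.07 at brain P2 and 8.41 at second brain P1, against 6.28 and 6.10 at P0. It rose by 2.31 (standard error 0.33, adjusted p = 0.0045) at brain P2 and by 2.22 (standard error 0.40, adjusted p = 0.0403) at second brain P1. On bone marrow its signal was 6.32, 5.94, 5.98 and 6.11 at P1 to P4, on lung 5.0, 6.21, 6.27 and 6.22, and on breast 6.23, so that lung P1, an array with a high floor, was its lowest. Chac1, an enzyme that breaks down glutathione, was 9.38 and 8.84 at brain P2 and 10.07 at second brain P1, against 7.06 and 6.89 at P0, and rose by 2.14 (adjusted p = 0.0034) and 3.10 (adjusted p = 0.0081). The groups did not overlap, and the highest of the other adapted arrays was brain P1 replicate 1 at 7.72. Vldlr, a lipoprotein receptor, was 8.83 and 8.74 at brain P2 and 9.07 at second brain P1, against 7.0 and 7.97 at P0, and rose by 1.30 (adjusted p = 0.0325) at brain P2, while the value of 1.59 (adjusted p = 0.0923) at second brain P1 did not pass. The P0 arrays of Vldlr were 0.98 apart.

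Ppp1r15a, which encodes GADD34, the subunit that directs dephosphorylation of eIF2, differed between the brain P2 arrays, at 7.65 and 6.01, and was 7.84 at second brain P1, against 5.54 and 5.55 at P0. Its log2 fold change was 1.28 (standard error 0.43, adjusted p = 0.094) at brain P2 and 2.30 (standard error 0.53, adjusted p = 0.0791) at second brain P1, and neither passed the test. Sesn2, a leucine sensor upstream of mTORC1, was 7.32 and 6.88 at brain P2, overlapping the P0 arrays at 6.65 and 6.91, and was highest at second brain P1, at 8.12, a value of 1.35 against P0 (adjusted p = 0.1275). It was called higher at second brain P1 than at brain P1, by 2.10 (adjusted p = 0.0147). Its brain P1 arrays, at 6.44 and 5.60, were below both P0 arrays, and the second of them was the lowest of the 21 arrays. Stc2, a secreted glycoprotein that was below the filter, was 6.71 and 6.69 at brain P2 and 7.31 at second brain P1, against 5.44 and 5.06 at P0, and was as high at brain P1, at 6.48 and 6.82, and on the lung P1 array, at 6.88. In the fit with no filter it stood at 1.40 at brain P1 (adjusted p = 0.0931), 1.45 at brain P2 (adjusted p = 0.0629) and 2.06 at second brain P1 (adjusted p = 0.2175). Fgf21, a hormone-like growth factor, was at 3.95 to 4.89 on all adapted arrays, below the median signal of every array.

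**Figure D3:**
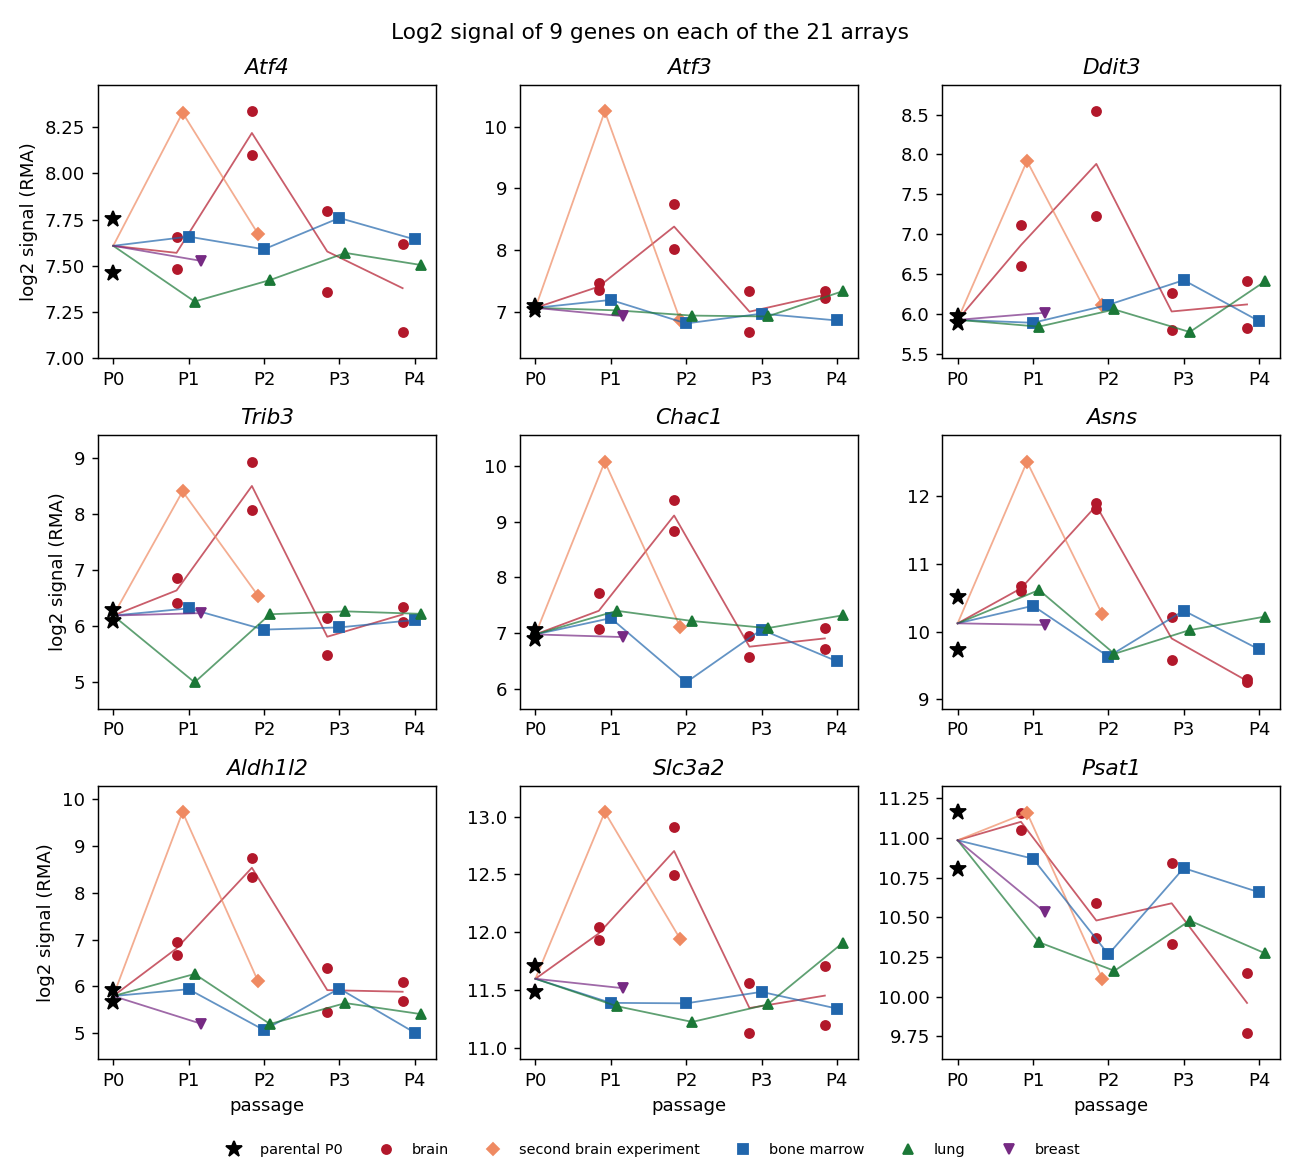
Log2 RMA signal of Atf4, Atf3, Ddit3, Trib3, Chac1, Asns, Aldh1l2, Slc3a2 and Psat1 on each of the 21 arrays against passage, with a point per array, lines through group means and stars for P0; each panel has its own vertical scale. Brain peaks at P2 and the second brain experiment at P1 in every panel but that of Psat1, where the brain P2 arrays, at 10.37 and 10.59, lie below P0.

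Genes of amino acid synthesis were uneven. Asns, the asparagine synthetase, was 11.90 and 11.81 at brain P2 and 12.50 at second brain P1, against 9.73 and 10.51 at P0, and between 9.25 and 10.68 on the 16 other adapted arrays. It rose by 1.73 (standard error 0.28, adjusted p = 0.0076) at brain P2 and by 2.38 (standard error 0.34, adjusted p = 0.019) at second brain P1. Gpt2, the mitochondrial alanine aminotransferase, was 8.71 and 8.34 at brain P2 and 8.95 at second brain P1, against 6.35 and 6.53 at P0, and rose by 2.08 (adjusted p = 0.0013) and 2.50 (adjusted p = 0.0081). Both genes were free of overlap between these arrays and any other. Aldh18a1, an enzyme of proline and ornithine synthesis, was 9.92 and 9.25 at brain P2 and 11.09 at second brain P1, against 8.58 and 8.77 at P0. It was called at second brain P1, by 2.42 (adjusted p = 0.0164), and not at brain P2, where the value was 0.90 (adjusted p = 0.068). Psph, the last enzyme of serine synthesis, was 7.27 and 6.91 at brain P2 and 8.24 at second brain P1, against 6.71 and 6.42 at P0, and was called at second brain P1, by 1.68 (adjusted p = 0.0403), with 0.53 (adjusted p = 0.2177) at brain P2.

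Psat1, the aminotransferase of serine synthesis that precedes Psph, did not share the pattern. Its signal was 10.37 and 10.59 at brain P2 and 11.16 at second brain P1, against 10.81 and 11.16 at P0. The brain P2 arrays were below both P0 arrays, but the change of -0.51 (standard error 0.24, adjusted p = 0.2136) did not pass, and Psat1 was called in no comparison. Phgdh, which begins serine synthesis, was dim on all arrays, at 5.24 and 5.44 at brain P2 and 5.16 at second brain P1, against 4.69 and 5.39 at P0. Cth and Cbs, the enzymes that turn homocysteine into cysteine, were likewise dim, with 4.73 and 4.41 for Cth and 5.32 and 5.48 for Cbs at brain P2, against 4.35 and 4.58 and 5.65 and 5.32 at P0.

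The mitochondrial one-carbon genes held the largest change of the list, that of Aldh1l2. This gene is among the 8 that passed the filter only through the brain P2 or second brain P1 group, where it was high. Aldh1l2, which oxidises 10-formyl-tetrahydrofolate in mitochondria, was 8.33 and 8.74 at brain P2 and 9.72 at second brain P1, against 5.66 and 5.92 at P0. It rose by 2.74 (standard error 0.32, adjusted p = 0.0022) at brain P2 and by 3.93 (standard error 0.39, adjusted p = 0.0076) at second brain P1. At brain P1 it was already above P0 on both arrays, at 6.96 and 6.66, though the value of 1.02 (adjusted p = 0.1146) did not pass. On bone marrow it was 5.94, 5.07, 5.95 and 5.01 at P1 to P4, on lung 6.26, 5.19, 5.64 and 5.41, and on breast 5.20, which are near or below P0. Mthfd2, the mitochondrial methylenetetrahydrofolate dehydrogenase, was 10.15 and 9.65 at brain P2 and 10.67 at second brain P1, against 8.25 and 8.05 at P0, and rose by 1.75 (adjusted p = 0.0033) and 2.52 (adjusted p = 0.0081). Shmt2, the mitochondrial enzyme that takes a carbon from serine, was 10.26 and 9.78 at brain P2 and 10.83 at second brain P1, against 9.11 on both P0 arrays. It was called at second brain P1, by 1.71 (adjusted p = 0.0403), and narrowly not at brain P2, at 0.91 (adjusted p = 0.0521).

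Slc3a2, the heavy chain that carries several amino acid exchangers to the cell surface, was 12.91 and 12.49 at brain P2 and 13.04 at second brain P1, against 11.48 and 11.71 at P0. It rose by 1.11 (adjusted p = 0.0241) at brain P2 and stood at 1.44 (adjusted p = 0.0609) at second brain P1. Slc7a3, a carrier of cationic amino acids, was dim throughout, with 5.44 on the breast array as its highest value.

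The genes that charge or export tRNA had smaller values. Of 7 tested, 4 were higher at brain P2, beside 4.9% of all genes, with a median of 0.88 and a range from 0.64 to 1.25. At second brain P1, 4 were higher, beside 0.945% of all genes, with a median of 1.44. Xpot, the nuclear exporter of tRNA, was 9.66 and 9.32 at brain P2 and 9.96 at second brain P1, against 8.40 and 8.07 at P0, and rose by 1.25 (adjusted p = 0.013) and 1.73 (adjusted p = 0.0325). Gars, Mars and Iars, the synthetases for glycine, methionine and isoleucine, rose at brain P2 by 0.83 (adjusted p = 0.0319), 1.04 (adjusted p = 0.0137) and 0.88 (adjusted p = 0.0197), and at second brain P1 by 1.48, 1.31 and 1.35. Gars was 10.79 and 10.39 at brain P2 and 11.24 at second brain P1, against 9.73 and 9.79 at P0. Mars was 9.57 and 9.32 at brain P2 and 9.72 at second brain P1, against 8.43 and 8.39 at P0. For both, the brain P2 arrays were above every array other than that of second brain P1. Iars was 11.36 and 11.08 at brain P2 and 11.69 at second brain P1, against 10.44 and 10.24 at P0, and its other probe set, at 0.76 (adjusted p = 0.0389) and 1.27 (adjusted p = 0.0403), moved likewise. Sars, the synthetase for serine, was 11.28 and 10.89 at brain P2 and 11.69 at second brain P1, against 9.81 and 10.62 at P0. Nars, that for asparagine, was 11.76 and 11.19 at brain P2 and 12.02 at second brain P1, against 10.33 and 10.83 at P0. Sars, Nars and Eprs, which charges tRNA with both glutamate and proline, had values of 0.87 (adjusted p = 0.07), 0.90 (adjusted p = 0.0502) and 0.64 (adjusted p = 0.1522) at brain P2 and did not pass. Eprs was the one of the 3 whose brain P2 arrays, at 9.74 and 9.20, overlapped the other adapted arrays, against 9.02 and 8.65 at P0.

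Both ER stress genes of the list were called at brain P2, while their values of 1.18 (Herpud1, adjusted p = 0.2962) and 1.12 (Ern1, adjusted p = 0.0608) at second brain P1 did not pass. Herpud1, a component of ER-associated degradation, was 9.92 and 10.11 at brain P2 and 9.65 at second brain P1, against 7.69 and 9.25 at P0, and rose by 1.55 (standard error 0.40, adjusted p = 0.0425) at brain P2. The P0 arrays of Herpud1 were 1.57 apart, more than for any other gene of the list, and brain P1, at 9.22 and 9.33, was close to the higher of them. Ern1, which encodes the ER stress sensor IRE1, was 9.05 and 8.68 at brain P2 and 9.10 at second brain P1, against 7.96 and 8.0 at P0, and rose by 0.88 (adjusted p = 0.0211) at brain P2.

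Brain P1 and the late brain passages showed no called gene of the list. At brain P1, 0 of 30 were called against P0 by limma, where 5.55% of all genes were called in either direction. There 7 of the 30 had an unadjusted p under 0.05, and the median of the 30 was 0.30. At brain P3 and P4, 0 of 30 were called, beside 0.658% and 1.01% of all genes, with medians of -0.10 and -0.10, and 3 and 2 genes had an unadjusted p under 0.05. From one passage to the next, 5 genes were higher at brain P2 than at brain P1 (Aldh1l2, Chac1, Gpt2, Nupr1 and Trib3, by 1.71 to 2.19), beside 0.986% of all genes. That count was 2 without brain P1 replicate 1, 0 without brain P1 replicate 2, and 2 without brain P2 replicate 1 and 2 without brain P2 replicate 2.

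The return was as broad as the rise. At brain P3 21 of the 30 genes were lower than at brain P2 and 0 higher, while 12.7% of all genes were called lower, and the median of the genes was -1.26. Without brain P2 replicate 1, and likewise without brain P3 replicate 2, the count was 12. The lowest values were those of Trib3, at -2.69 (adjusted p = 0.0013), Aldh1l2, at -2.61 (adjusted p = 0.0013), and Atf5, at -2.44 (adjusted p = 0.0019). Atf5 had signals of 6.01 and 5.17 at brain P3, against 8.03 and 8.03 at brain P2, and the brain P3 arrays were also below P0. Between brain P3 and P4, 0 genes were called, 4 had an unadjusted p under 0.05, and 0.63% of all genes were called in either direction. The mean of the late brain passages P3 and P4 was lower than that of P1 and P2 for 21 genes and higher for 0, beside 16.6% of all genes called lower, with a median of -0.78. Asns, at 10.21 and 9.59 at brain P3 and 9.29 and 9.25 at brain P4, against 10.68 and 10.60 at brain P1 and 11.90 and 11.81 at brain P2, did not overlap between early and late passages and differed by -1.66 (standard error 0.20, adjusted p = 0.000772).

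In the second brain experiment the list lay near P0 at P2, a passage earlier than in the first. P2 of that experiment was not tested against its own P1. At its P2, 0 of 30 genes were called against P0, 2 had an unadjusted p under 0.05, the median was 0.09, and 0% of all genes were called. Compared with the same passage of the first experiment, 18 genes were higher at second brain P1 than at brain P1, beside 4.59% of all genes, with a median of 1.42. At P2 the order was the opposite, with 12 genes lower at second brain P2 than at brain P2, beside 3.9% of all genes, and a median of -1.16. Chac1, for example, was 10.07 at second brain P1, against 7.72 and 7.08 at brain P1, and 7.11 at second brain P2, against 9.38 and 8.84 at brain P2. Without brain P1 replicate 1 and replicate 2 the first of these counts was 11 and 7, and without brain P2 replicate 1 the second was 6. Each passage of the second experiment is a lone array whose spread was taken from the groups with 2 arrays.

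The rise in the first brain line was tested against the bone marrow and lung lines at the same passage. The second brain experiment did not share the difference at P2. Its median against P0 was 0.09 there, beside -0.06 on bone marrow P2 and -0.15 on lung P2. Tissue and adapted line therefore cannot be told apart in this comparison. At brain P2, 19 genes were higher than the mean of bone marrow and lung P2 and 0 lower, where 6.23% of all genes were called higher, all 30 had a positive value, and the median was 1.24. Without brain P2 replicate 1 the count was 10. Aldh1l2, at 8.33 and 8.74 at brain P2, against 5.07 on bone marrow P2 and 5.19 on lung P2, had the largest value, 3.40 (standard error 0.32, adjusted p = 0.000576). Vldlr was 8.83 and 8.74 at brain P2, against 7.38 on bone marrow P2 and 6.15 on lung P2, a difference of 2.02 (adjusted p = 0.0055). At P1, 0 of 30 genes differed between brain and the mean of bone marrow and lung, with 9.22% of all genes called in either direction, 5 genes at an unadjusted p under 0.05 and a median of 0.25.

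On bone marrow, lung and breast no gene of the list was called against P0. For bone marrow, 0 of 30 genes were called against P0 at P1, P2, P3 and P4, where 0.123%, 0.151%, 0.274% and 0.219% of all genes were called, and the medians of the list were 0.10, -0.06, 0.09 and -0.09. Unadjusted p under 0.05 were found for 1, 3, 1 and 0 genes. For lung, 0 genes were called at P1, P2, P3 and P4 either, beside 0.151%, 0.0411%, 0.0548% and 0.0822% of all genes, with medians of -0.06, -0.15, -0.10 and -0.04 and 1, 2, 0 and 2 genes at an unadjusted p under 0.05. The mean over the 4 passages called 0 genes on bone marrow, beside 0.37% of all genes and 0 at an unadjusted p under 0.05, and 0 on lung, beside 0.205% and 2. On breast P1, 0 were called, beside 0.26% of all genes, with a median of -0.02 and 2 genes at an unadjusted p under 0.05. Each of these groups is a lone array, and large values did not pass there. Vldlr was 5.79 on breast P1, against 7.0 and 7.97 at P0, a difference of -1.70 (adjusted p = 0.181), and differed by -1.45 (adjusted p = 0.5014) on lung P4. On the lone array of second brain P1 the value of 2.30 for Ppp1r15a did not pass either, so the absence of calls does not bound the changes of single genes closely.

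Related genes were read from lists that do not overlap with the 38. Of 16 kept other ATF4 targets, 8 were higher and 1 lower at brain P2, beside 4.9% and 8.37% of all genes, with a median of 1.05. At second brain P1, 8 were higher and 0 lower, beside 0.945% and 0.603% of all genes, with a median of 1.56. The 4 of lowest p at brain P2 were Vegfa, a vessel growth factor, by 1.88 (adjusted p = 0.001), Gadd45a, a DNA damage response gene, by 2.18 (adjusted p = 0.0025), Slc7a5, the light chain that pairs with Slc3a2, by 1.40 (adjusted p = 0.0069), and Sqstm1, an autophagy receptor, by 1.52 (adjusted p = 0.0086). Vegfa also stands in lists that the study drew from these same arrays, so its rise is not independent of those lists. Other cytosolic tRNA synthetases followed in part, with 2 of 12 higher at brain P2, Rars and Lars, beside 4.9% of all genes. At second brain P1, 3 were higher, beside 0.945% of all genes, and the medians were 0.51 and 1.00. Of 9 mitochondrial synthetases, 0 were called at brain P2 and 0 at second brain P1, with medians of -0.24 and 0.18 and 3 and 0 at an unadjusted p under 0.05. Of 11 genes upstream of ATF4, the eIF2 kinases, eIF2 subunits and exchange factors, 0 were called in either, with medians of -0.03 and 0.23 and 1 and 1 at an unadjusted p under 0.05.

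The ER chaperones moved the other way. At brain P1, where 0 of the 30 genes were called, 2 chaperones, Sdf2l1 and Dnajc3, were already called lower than at P0. The median of the chaperones there was -0.34, and 5.55% of all genes were called in either direction. Of 14 tested, 8 were lower and 0 higher at brain P2, beside 8.37% of all genes called lower, with a median of -0.77, and 0 were called at second brain P1, with a median of -0.35 and 6 at an unadjusted p under 0.05. Sdf2l1, a cofactor of the chaperone BiP, had a log2 fold change of -1.68 (adjusted p = 0.0041) at brain P2, Dnajc3, an ER co-chaperone, of -1.29 (adjusted p = 0.006), Edem1, which takes misfolded glycoproteins to degradation, of -1.19 (adjusted p = 0.0076), and Creld2, an ER stress-inducible protein, of -0.88 (adjusted p = 0.0208). The cell cycle genes were also lower at brain P2, 5 of 9 beside the same 8.37%, with a median of -0.77, and 0 were called at second brain P1, with a median of -0.61 and 6 at an unadjusted p under 0.05. Ccna2, a cyclin, stood at -1.49 (adjusted p = 0.0024) and Mki67, a marker of cycling cells, at -1.47 (adjusted p = 0.0025). Ccna2 also stands in lists that the study drew from these same arrays. The study reported that the brain line grew slowly at P1 and P2, with its cell cycle slowest at P2. Growth rates were not part of the values used here, and the part of growth in the results was not tested.

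**Figure D4:**
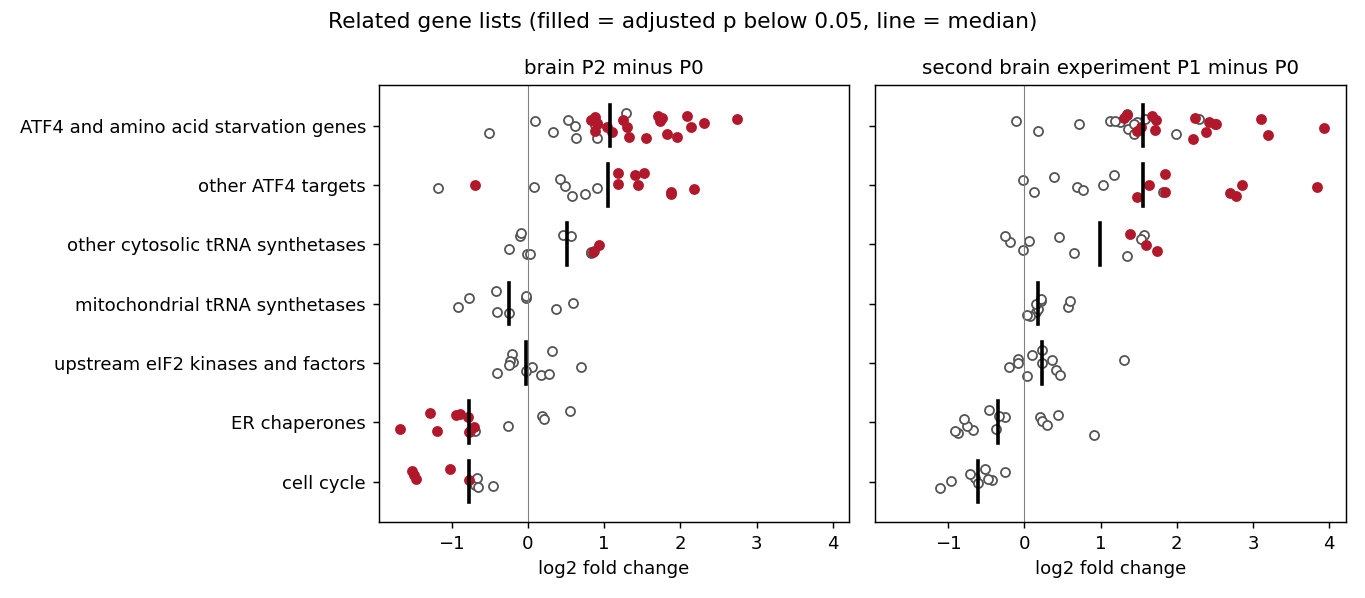
Log2 fold change from P0 of each kept gene of 7 lists at brain P2 (left, n = 2) and at second brain P1 (right, n = 1); filled points have an adjusted p below 0.05 and black lines are medians. ATF4 and amino acid starvation genes, at medians of 1.07 and 1.56, and other ATF4 targets, at 1.05 and 1.56, lie to the right of 0, while ER chaperones, at -0.77 and -0.35, and cell cycle genes, at -0.77 and -0.61, lie to the left.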

How the data were processed

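RNA was taken from cultured cells. The deposited log2 values were made by the authors with RMA (Affymetrix Expression Console), which corrects the background, gives all arrays the same distribution and summarises the probes of a set, so that arrays can be compared but genes cannot; the version is not given in the sources used here. Arrays carry no read depth, and their number limits the precision. Groups were taken from the labels.

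Of 34760 probe sets, 21640 carry 1 gene symbol. The study kept 10522 probe sets by negative controls that are not used here, so the same number was kept by the largest group mean. One mean per group was fitted to all 21 arrays with limma 3.58.1 in R 4.3.3, with 5 residual degrees of freedom, and p-values were adjusted over the 10522 probe sets. The fit was tested on simulated data. The members and lists were chosen with earlier results of these data known. By the rule for named genes, values per array are printed for Atf4 and for members called in any comparison, and outside it for Psat1, Ppp1r15a and dim members, to account for them, and at most 4 genes of each other list, by lowest p at brain P2, are named. Promoter sequences are from RefSeq, assembly GRCm38.p6; figures used Python 3.11.15 and matplotlib 3.10.9. The alternatives were no filter, other filters, cyclic loess, equal array medians, a trend in the variance, the mean of a gene's probe sets, a replicate block, chromosome medians subtracted, both experiments pooled, and leaving out arrays. The filter set on other groups and the omission of the 5 high-floor arrays were chosen after seeing the data.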

Additional observations from a re-analysis of the deposited data

Results flagged for a closer look

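The first brain line differed from the bone marrow and lung lines at P2, and from the second brain line at P1 and P2. Each was a test of the difference itself. The second brain line had a median of 0.09 against P0 at P2, so tissue and adapted line cannot be told apart. At brain P2, 19 of 30 genes were called higher than on bone marrow and lung P2, beside 6.23% of all genes, with a median log2 difference of 1.24. At P1, 0 of 30 differed between brain and the mean of bone marrow and lung. At second brain P1, 18 genes were called higher than at brain P1, beside 4.59% of all genes, with a median of 1.42. At second brain P2, 12 genes were called lower than at brain P2, beside 3.9% of all genes, with a median of -1.16. Stc2, which the filter left out, differed by -1.28 between late and early brain passages in the fit with no filter (limma, adjusted p = 0.0114), with means of 5.39 at P3 and P4 and 6.67 at P1 and P2. Dixon's test for single outlying arrays could not be applied, because no group has 4 or more arrays.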

How the results depend on the processing

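In the 8 comparisons with a called gene, the median of the list kept its sign under every alternative run, and it stayed between 0.71 and 1.28 at brain P2 and between 1.48 and 1.70 at second brain P1. In 10 of the 25 comparisons, all with a median within 0.10 of 0 and with 0 genes called, such as brain P3, brain P4 and bone marrow P1 against P0, the sign changed under at least 1 alternative, so no direction can be read there. The counts of calls moved more. The share of all genes called moved too, from 4.9% to 0.361% called higher at brain P2 against P0 with no filter. For most of the counts below that share is not given here, so they describe the list alone. With no filter, which adjusts over more probe sets, the counts were 6 at brain P2 against P0, 0 at second brain P1 against P0, 0 at brain P2 against P1, 11 lower at brain P3 against P2, 13 lower in late passages, 7 at brain P2 against bone marrow and lung P2, 4 at second against first brain P1 and 1 lower at second against first brain P2. Without the 5 arrays with the highest floor, chosen after the data had been seen, 1 residual degree of freedom remained, and the counts were 3 lower in late passages and 0 in each of the other 7 comparisons, with a median of 1.28 at brain P2. With both brain experiments pooled by passage number, 0 were called at brain P2, beside 0% of all genes, with a median of 0.71. Brain P2 against P1 gave 12 with the filter of 7000 probe sets, 2 with the filter on the overall mean, 2 with the filter on other groups, 14 with equal array medians, 13 with cyclic loess and 14 with chromosome medians subtracted. Brain P1 against bone marrow and lung P1 gave 1 with cyclic loess. With a replicate block on array order the count was 22 at brain P2 against P0, 12 at brain P2 against P1 and 1 at brain P1 against bone marrow and lung P1; the labels do not pair the arrays, and correlations of the deviations of same-numbered arrays ran between 0.0089 and 0.357, so the block is not used. With single arrays left out the counts ranged from 0 to 1 at brain P1, 7 to 14 at brain P2, 6 to 9 at second brain P1, 0 to 2 at brain P2 against P1, 12 to 20 at brain P3 against P2, 10 to 19 at brain P2 against bone marrow and lung P2, 7 to 11 at second against first brain P1, 6 to 11 at second against first brain P2, and 0 to 1 lower on breast. The 11 groups with a lone array limit what can be called there.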
